A study of Mus musculus with 8 samples.

Results

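Prostanoid receptors are the cell surface receptors for prostaglandins and thromboxane, and their genes were described in bulk RNA sequencing of the mouse jejunum, a segment of the small intestine between duodenum and ileum. The members were chosen by symbol, and all 9 listed receptor genes were found among the 56941 genes counted: Ptger1, Ptger2, Ptger3, Ptger4, Ptgdr, Ptgdr2, Ptgir, Ptgfr and Tbxa2r. The libraries came from naive mice of 2 inbred strains, C57BL/6 (B6, replicates 2, 3, 4 and 5) and C3H/HeJ (C3H, replicates 1, 3, 4 and 5), with 4 libraries per strain and no further allele or agent named. The labels give the mice as 6 to 8 weeks old and as co-housed across strains for 8 weeks or longer until tissue was taken, without saying at which point the age holds. C3H/HeJ mice carry a loss-of-function change in Tlr4, the lipopolysaccharide receptor. Whether the libraries are separate mice is not stated, so each p-value reflects spread among libraries, which may be technical.

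Prostanoids are short-lived lipids that cyclooxygenases and downstream synthases make from arachidonic acid, and they act close to where they are made. Each binds its own G protein-coupled receptors: the EP receptors (Ptger1 to Ptger4) bind prostaglandin E2, DP1 (Ptgdr) and DP2 (Ptgdr2) bind prostaglandin D2, IP (Ptgir) binds prostacyclin, FP (Ptgfr) binds prostaglandin F2-alpha, and TP (Tbxa2r) binds thromboxane A2. EP2, EP4, DP1 and IP raise cyclic AMP through Gs, EP3 and DP2 lower it through Gi, and EP1, FP and TP mobilise calcium, mainly through Gq. In the intestine, prostaglandin E2 is known for its part in epithelial repair and fluid secretion, and prostaglandin D2 for its part in allergic inflammation.

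Total counts were 37205896 to 58251332 per library, and 18025 genes passed the filter on low counts. Of these, 3857 (21.4%) passed the threshold between the strains, 2040 (11.3%) higher and 1817 (10.1%) lower in C3H, in edgeR's quasi-likelihood test at a Benjamini-Hochberg adjusted p under 0.05. Markers of absorptive enterocytes summed to 67400 to 83390 CPM (counts scaled to a common library total) in B6 and 58580 to 93090 CPM in C3H, and 0 of 10 passed in edgeR (0 with an unadjusted p under 0.05). Enteroendocrine markers rose (7 of 10 tested, 0 fell), and 2 of 10 goblet and Paneth, 2 of 10 B and plasma cell and 1 of 12 enteric neuron and glia markers fell, with none higher. The pancreas markers stood apart in C3H 3 (2997 CPM) and C3H 5 (1369 CPM), against 24.3 to 259 CPM in the other libraries. Adipocyte genes, a list added after the data were seen, stood apart in C3H 3 alone (440.7 CPM, against 138 to 189 CPM elsewhere).

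Promoter sequence was at hand for 8 of the 9 receptors, with none for Ptger1. The promoters of 3 receptors are shown because they belong to the most abundant receptor (Ptger4), to the receptor that differed between the strains (Ptgdr2) and to the other Gs-coupled EP receptor (Ptger2). Each covers 250 bases before to 50 bases after the start site in RefSeq on build GRCm38.p6, read 5′ to 3′ on the gene's strand, while the counts were made on GRCm39. They lie at chr15:5244138-5244437 (minus strand), chr19:10936910-10937209 (plus strand) and chr14:44987861-44988160 (plus strand). Capitals mark the GC box letters GGGCGG or their reverse complement CCGCCC, and neighbouring matches run together.
Ptger4: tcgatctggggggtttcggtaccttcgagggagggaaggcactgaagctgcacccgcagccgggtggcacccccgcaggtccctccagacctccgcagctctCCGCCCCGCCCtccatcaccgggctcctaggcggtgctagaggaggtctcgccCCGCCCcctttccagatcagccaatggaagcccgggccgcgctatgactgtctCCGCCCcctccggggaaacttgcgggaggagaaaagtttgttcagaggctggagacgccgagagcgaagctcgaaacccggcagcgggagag
Ptgdr2: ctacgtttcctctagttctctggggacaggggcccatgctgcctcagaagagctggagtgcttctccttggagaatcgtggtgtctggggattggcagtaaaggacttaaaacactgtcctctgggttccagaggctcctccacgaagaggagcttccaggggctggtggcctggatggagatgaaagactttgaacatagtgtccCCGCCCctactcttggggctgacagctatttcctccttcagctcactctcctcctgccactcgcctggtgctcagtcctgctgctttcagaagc
Ptger2: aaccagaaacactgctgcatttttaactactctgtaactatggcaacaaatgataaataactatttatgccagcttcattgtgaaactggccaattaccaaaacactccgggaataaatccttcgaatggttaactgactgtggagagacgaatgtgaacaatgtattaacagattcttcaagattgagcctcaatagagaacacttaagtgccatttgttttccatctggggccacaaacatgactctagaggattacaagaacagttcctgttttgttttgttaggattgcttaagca

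The Ptger4 promoter held 4 matches to the GC box letters, the Ptgdr2 promoter 1 and the Ptger2 promoter 0. Of all 32851 promoters of this length 35.7% held at least 1 match, so a match is common. The Ptger4 window was 67.0% G or C with 25 CpG dinucleotides, the Ptgdr2 window 56.0% with 5, and the Ptger2 window 37.7% with 3, against medians of 52.7% and 7 over all promoters. Of the other motifs searched on both strands, the GATA factor letters GATAAG stand in 7.44% of all promoters, the cyclic AMP response element core TGACGT in 7.51% and the TATA box letters TATAAA in 13.6%. None of these had a match in the windows of the 8 receptors. A match describes the letters only, and their absence says nothing of the factors that bind elsewhere.

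The jejunum held transcripts of all 9 receptors, and Ptger4 made up most of the receptor message. Levels were compared between genes as CPM per kilobase, dividing by the mean transcript length in GENCODE M21. On this length-scaled level Ptger4 had a mean of 11.3 ± 2.72 CPM per kilobase in B6 and of 10.2 ± 1.89 in C3H (SD, n = 4 each). Over all 8 libraries its mean was 18.3 times that of the next receptor, Ptger2, and the 2 genes' ranges over the 8 libraries did not overlap. Ptger4 held 77.0% to 85.5% of the summed length-scaled level of the receptors in the B6 libraries and 67.4% to 81.1% in the C3H libraries. Among the genes tested that have a length in the annotation, Ptger4 stood at the 62.4th percentile of the length-scaled level, and the other receptors stood between the 1.90th (Ptgdr2) and the 17.0th (Ptger2).

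**Figure D1:**
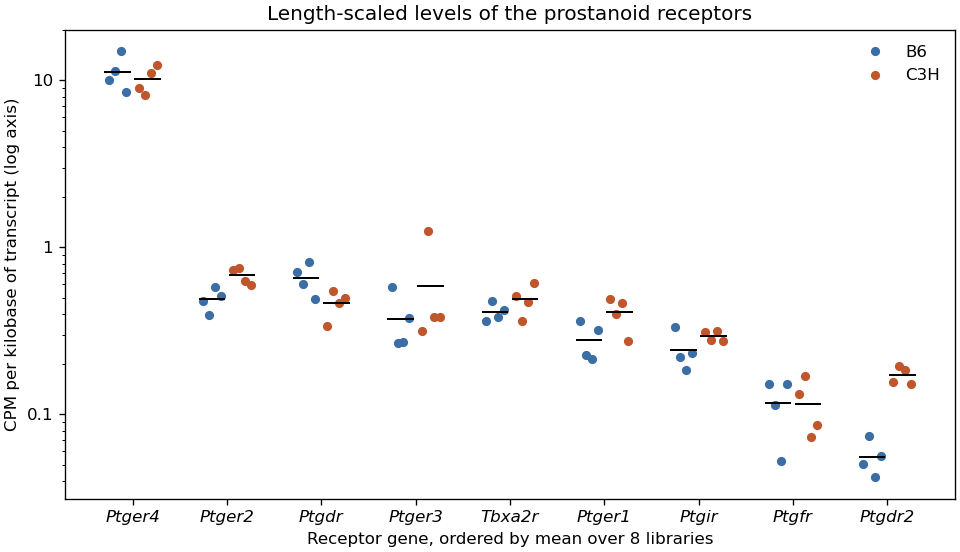
Length-scaled level of each receptor in each library, in CPM per kilobase of mean transcript length on a log axis; points are libraries (blue B6, orange C3H) and black lines the strain means. Ptger4 lies between 8.22 and 14.9 in all 8 libraries, while the other receptors reach at most 1.26 (Ptger3 in C3H 3).

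Below Ptger4 the order was mostly within the spread between libraries. The means over all 8 libraries were 0.585 CPM per kilobase for Ptger2, 0.559 for Ptgdr, 0.479 for Ptger3, 0.450 for Tbxa2r, 0.345 for Ptger1 and 0.269 for Ptgir. Each neighbour in that run overlapped the next in range. Ptgfr (0.116) and Ptgdr2 (0.114) came last, and Ptgir lay above Ptgfr with separate ranges (2.32 times in the mean). In B6 the second place went to Ptgdr (0.656 ± 0.142) and in C3H to Ptger2 (0.679 ± 0.0801). With the longest transcript in place of the mean length, Ptgfr fell to the last place (0.0494) because its transcripts differ most in length, and Ptger4 still led (9.79). For the 6 receptors that overlap another gene, Ptgdr2 and Ptger1 among them, level, place and share also depend on the strand setting of the counting. That setting is not given in the sources used here.

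Grouped by ligand, the 4 prostaglandin E2 receptors held 87.7% to 91.6% of the summed length-scaled level in B6 and 87.2% to 89.4% in C3H. Prostaglandin D2 receptors held 4.90% to 5.83% in B6 and 4.12% to 6.10% in C3H, so the summed share of DP1 and DP2 overlapped between strains. Grouped by G protein, the Gs-coupled receptors held 88.0% to 94.5% in B6 and 80.4% to 90.1% in C3H. The Gi-coupled pair reached 11.9% in C3H 3, through Ptger3, and stayed between 1.79% and 4.78% in the other libraries. Ptger4 made up most of the Gs and prostaglandin E2 shares. With Ptger4 left out, the Gs-coupled receptors held 48.1% to 62.2% of the remaining level in B6 and 39.9% to 47.5% in C3H. These shares weigh message, not receptor protein, and whole tissue mixes many cell types.

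Of the 9 receptors tested, 1 changed between the strains: Ptgdr2 was higher in C3H. That is 11.1% of the receptors, against 21.4% of all genes tested, and none was lower (edgeR, adjusted p under 0.05 over all genes). With no adjustment, 4 of the 9 had a p under 0.05 (Ptger1, Ptger2, Ptgdr and Ptgdr2), against 33.1% of all genes. The median log2 fold change of the receptors was 0.30, with 7 of 9 positive, against a median of 0.03 over all genes tested. All 9 passed the filter on low counts. Ptgdr2 passed it through its C3H counts, since all its B6 counts were under 10. The filter thus favoured a difference in Ptgdr2, and its call under the filter is a description only. The fit with no filter on low counts, given below, does not rest on that choice.

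**Figure D2:**
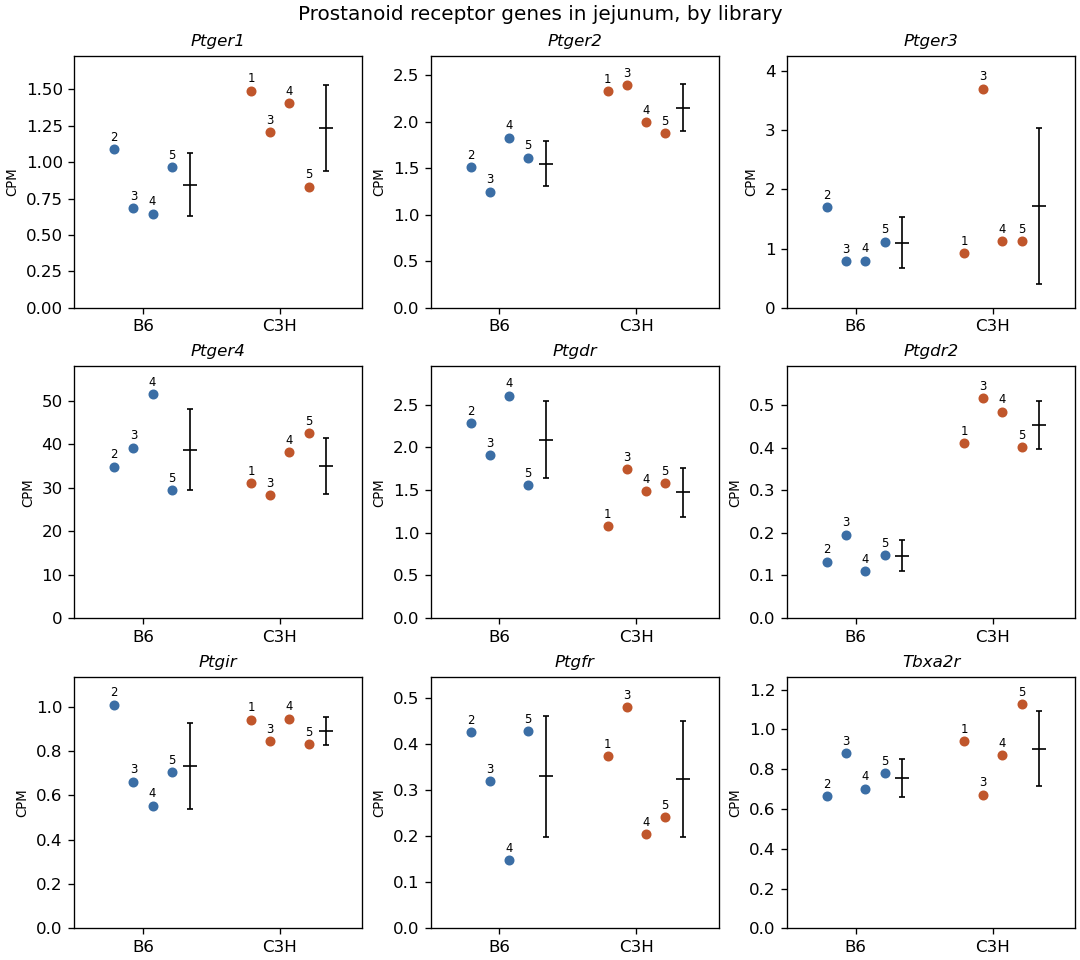
CPM of each receptor gene in each library (points, labelled by replicate number) with the strain mean and SD (black); each panel has its own axis from 0. All 4 C3H libraries lie above all 4 B6 libraries for Ptgdr2 and Ptger2, as in one direction or the other for 24.4% of all genes tested. C3H 3 stands alone for Ptger3.

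Ptgdr2 (ENSMUSG00000034117, chromosome 19) encodes DP2, also called CRTH2, the Gi-coupled prostaglandin D2 receptor through which T helper 2 cells, eosinophils, basophils and group 2 innate lymphoid cells are drawn to sites of mast cell activation. Its counts were 5, 8, 6 and 8 in B6 2, 3, 4 and 5, and 21, 27, 19 and 15 in C3H 1, 3, 4 and 5. On the scale of CPM these were 0.133, 0.196, 0.111 and 0.148 in B6, and 0.412, 0.518, 0.486 and 0.403 in C3H. The strains did not overlap, and the lowest C3H library (0.403) lay above the highest B6 library (0.196). Of all genes tested, 24.4% had one strain wholly above the other. The fitted difference was 3.10-fold (95% interval 2.09 to 4.58; log2 fold change 1.63, standard error 0.26; edgeR adjusted p = 0.000852). With no filter on low counts it was 1.6 on the log2 scale (adjusted p = 0.00163), and without the 4 libraries richest in pancreas markers it was 1.75 (adjusted p = 0.0375).

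Cells known to carry DP2 were represented by 16 markers of eosinophils, basophils, T helper 2 cells and group 2 innate lymphoid cells. Their summed level was 31.6 to 36.9 CPM in B6 and 27.1 to 33.4 CPM in C3H. Of the 10 tested, 1 rose and 4 fell (50%, against 21.4% of all genes). Ccr3, the eotaxin receptor, rose by 0.74 on the log2 scale, while Siglecf, Prg2, Klrg1 and Il9r fell by 0.61, 1.38, 2.36 and 1.11. Klrg1 passed the filter on low counts through its B6 counts, so its fall is a description only. Of the granule genes, Prg2 (major basic protein) had 389 counts summed in B6 and 139 in C3H, and Epx (eosinophil peroxidase) had 0 and 4. The cytokine genes had too few counts to test, with 11 and 19 for Il4, 2 and 0 for Il5, and 3 and 1 for Il13. Of 9 tested markers of mast cells, a main source of prostaglandin D2, 8 rose and 1 (Hdc) fell (100%, against 21.4% of all genes). The listed mast cell markers summed to 11.4 to 15.3 CPM in B6 against 28.1 to 50.7 in C3H. Members such as Tpsab1, Cma1 and Mcpt4, with 0 to 10 counts per B6 library, passed the filter through their C3H counts and so had to differ, and this count is a description only. The call of Hdc was lost with no filter (adjusted p = 0.0890). The part of these cell types in the Ptgdr2 difference was not tested. In bulk tissue, more cells of a type and more RNA per cell cannot be told apart.

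Ptgdr2 lies across the gene Ccdc86, which is read from the opposite strand and shares 39.0% of the exon bases of Ptgdr2 in GENCODE M21. Ccdc86 had 227 to 413 counts per library and a log2 fold change of 0.11 (95% interval -0.19 to 0.41; adjusted p = 0.619). The strand setting of the counting is not given in the sources used here, so reads from the overlap may have been shared or dropped. The next protein-coding genes are Zp1, with 2 counts in B6 and 0 in C3H, and Ms4a10, an abundant gene that did not pass (log2 fold change 0.38, 95% interval 0.01 to 0.76, adjusted p = 0.138).

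Ptgdr (ENSMUSG00000071489, chromosome 14) encodes DP1, the Gs-coupled receptor for the same ligand. Its CPM were 2.28, 1.91, 2.60 and 1.56 in B6 2, 3, 4 and 5, and 1.08, 1.75, 1.48 and 1.58 in C3H 1, 3, 4 and 5. B6 5 lay within the C3H range, and B6 2, B6 3 and B6 4 lay above it. The log2 fold change was -0.51 (95% interval -0.96 to -0.06), with an unadjusted p of 0.0311 and an adjusted p of 0.108 (edgeR), so Ptgdr did not pass. Message for T cells and intraepithelial lymphocytes was lower in C3H in the same libraries: 11 of 12 markers fell and Cd4 rose (100%, against 21.4% of all genes). The sums were 428 to 449.6 CPM in B6 and 175.0 to 276 in C3H. Their part in the Ptgdr values was not tested.

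Set side by side, the 2 prostaglandin D2 receptors stood in different proportion in the strains. Ptgdr exceeded Ptgdr2 by 14.3, 8.09, 19.5 and 8.71 times per kilobase in B6 2, 3, 4 and 5, and by 2.17, 2.80, 2.53 and 3.26 times in C3H 1, 3, 4 and 5. DP1 message was the larger in all 8 libraries, and no C3H ratio reached the lowest B6 ratio. The ratio is a description with no test, since the Ptgdr2 result was known when the receptors were chosen. Its divisor is Ptgdr2, with 5 to 8 counts per B6 library, so the separation in part restates the Ptgdr2 difference.

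Ptger4 (ENSMUSG00000039942, chromosome 15) encodes EP4, the Gs-coupled receptor through which prostaglandin E2 acts on epithelium, macrophages and lymphocytes of the gut. It was the one receptor with a mean of at least 100 counts per library, at 1314 to 2790. Its CPM were 34.9, 39.3, 51.5 and 29.5 in B6 2, 3, 4 and 5, and 31.0, 28.4, 38.1 and 42.6 in C3H 1, 3, 4 and 5. The ranges overlapped broadly, with B6 4 the highest. In the fit, the log2 fold change was -0.15 (95% interval -0.53 to 0.23, a fold of 0.693 to 1.18; edgeR adjusted p = 0.609), and 0.02 without B6 4.

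Ptger2 (ENSMUSG00000037759, chromosome 14) encodes EP2, which also signals through Gs and is known from stromal and myeloid cells. Its CPM were 1.51, 1.25, 1.83 and 1.61 in B6 2, 3, 4 and 5, and 2.33, 2.40, 1.99 and 1.88 in C3H 1, 3, 4 and 5. All C3H libraries lay above all B6 libraries, narrowly between B6 4 and C3H 5, as was so in one direction or the other for 24.4% of all genes tested. The log2 fold change was 0.47 (95% interval 0.12 to 0.82), with an unadjusted p of 0.0139 and an adjusted p of 0.0606 (edgeR), so it did not pass. Without B6 4 it did (0.56, adjusted p = 0.0481). Over the other alternatives the adjusted p reached 0.512.

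Macrophage and dendritic cell markers, among them cells that carry EP2, summed to 235 to 296 CPM in B6 and 294 to 323 CPM in C3H. Of 12 tested, 4 rose (Csf1r, C1qa, Itgam and Xcr1) and none fell (33.3%, against 21.4% of all genes in either direction). Fibroblast markers summed to 503 to 723 CPM and 561 to 798 CPM, and 0 of 10 passed in edgeR (2 had an unadjusted p under 0.05). Their part in the Ptger2 values was not tested. Ptger2 and Ptgdr are adjacent protein-coding genes on chromosome 14, 128.8 kilobases apart and on opposite strands, and their log2 fold changes had opposite signs (0.47 and -0.51).

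Ptger3 (ENSMUSG00000040016, chromosome 3) encodes EP3, the Gi-coupled receptor known from fever, platelets, neurons and fat cells, where it restrains lipolysis. Its CPM were 1.70, 0.784, 0.794 and 1.11 in B6 2, 3, 4 and 5, and 0.922, 3.70, 1.12 and 1.13 in C3H 1, 3, 4 and 5. C3H 3 stood alone, and the other C3H libraries lay within the B6 range. The log2 fold change of 0.68 (95% interval -0.31 to 1.66; edgeR adjusted p = 0.333) became -0.06 without C3H 3 (adjusted p = 0.918).

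C3H 3 was also the library with the most adipocyte and pancreas message. Adipoq, the fat cell hormone adiponectin, stood at 31.5 CPM there, while its C3H mean with that library included was 8.65 CPM and its B6 mean 4.09 CPM. Of the 14007 other genes with a symbol and a mean of at least 50 counts, the one whose profile over the 8 libraries came nearest to Ptger3 was Scara5, a ferritin receptor. The root mean square difference in log2 CPM, each gene centred on its own mean, was 0.169 for Scara5, against a median of 0.701 over all those genes. Chosen as the smallest, it lies below that median by selection. The spread of Ptger3 about its own mean on the same scale was 0.67. Scara5 was highest in C3H 3, at 3.51 CPM, against 0.646 to 1.51 CPM in the other libraries. C3H 5 held 1369 CPM of pancreas markers, 188.9 CPM of adipocyte genes and 1.13 CPM of Ptger3. B6 2, the next highest library for Ptger3 (1.70 CPM) and Scara5 (1.51 CPM), held 258.9 CPM of pancreas markers and 154.7 CPM of adipocyte genes. The part of fat or pancreas in the Ptger3 value was not tested.

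**Figure D3:**
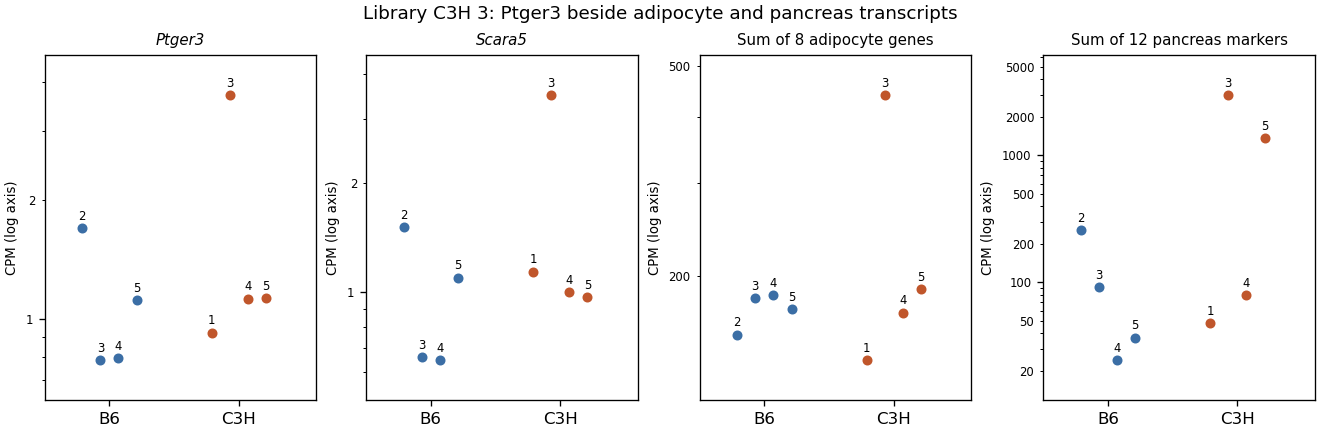
CPM of Ptger3, of the gene nearest to it in profile (Scara5), and the summed CPM of adipocyte genes and pancreas markers, in each library on log axes; points are labelled by replicate number. C3H 3 is the highest library in every panel, while C3H 5 is next highest for the pancreas markers and B6 2 for Ptger3 and Scara5.

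Ptger1 (ENSMUSG00000019464, chromosome 8) encodes EP1, which raises calcium and is known from smooth muscle and sensory neurons. Its CPM were 1.09, 0.686, 0.646 and 0.965 in B6 2, 3, 4 and 5, and 1.49, 1.21, 1.41 and 0.832 in C3H 1, 3, 4 and 5. C3H 5 lay within the B6 range, and C3H 1, C3H 3 and C3H 4 lay above it. The log2 fold change was 0.56 (95% interval 0.03 to 1.08), with an unadjusted p of 0.0394 and an adjusted p of 0.128 (edgeR).

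Ptger1 had 28 to 76 counts per library. As for the other receptors that overlap a gene in the annotation, its counts depend on a strand setting that is not given in the sources used here.

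Ptgir (ENSMUSG00000043017, chromosome 7) encodes IP, the Gs-coupled prostacyclin receptor of vessels and stroma. Its CPM were 1.01, 0.661, 0.554 and 0.706 in B6 2, 3, 4 and 5, and 0.941, 0.844, 0.946 and 0.832 in C3H 1, 3, 4 and 5. All C3H values lay within the B6 range, since B6 2 was the highest of all libraries, and they varied least of any receptor in 1 strain (coefficient of variation 6.87%). It had a log2 fold change of 0.30 (95% interval -0.16 to 0.76; edgeR adjusted p = 0.364). Endothelial markers summed to 106 to 117 CPM in B6 and 118 to 161 CPM in C3H, with 4 of 10 higher and 1 (Vwf) lower (50%, against 21.4% of all genes).

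Tbxa2r (ENSMUSG00000034881, chromosome 10) encodes TP, the thromboxane receptor of platelets and of vascular and visceral smooth muscle. Its CPM were 0.664, 0.882, 0.702 and 0.780 in B6 2, 3, 4 and 5, and 0.941, 0.671, 0.869 and 1.13 in C3H 1, 3, 4 and 5. The strains overlapped, with a log2 fold change of 0.24 (95% interval -0.20 to 0.69; edgeR adjusted p = 0.451). Platelet markers had 3 of 8 tested, of which 1 (Itga2b) rose and 0 fell (33.3%, against 21.4% of all genes). Smooth muscle markers summed to 599 to 1021 CPM in B6 and 744 to 875 CPM in C3H, and 0 of 10 passed in edgeR (0 had an unadjusted p under 0.05).

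Ptgfr (ENSMUSG00000028036, chromosome 3) encodes FP, the prostaglandin F2-alpha receptor known from uterus, eye and stroma. It was among the least counted, with 8 to 25 counts per library. Its CPM were 0.425, 0.318, 0.148 and 0.427 in B6 2, 3, 4 and 5, and 0.373, 0.479, 0.204 and 0.242 in C3H 1, 3, 4 and 5. Its log2 fold change was 0.04 with a wide 95% interval, -0.78 to 0.85 (edgeR adjusted p = 0.961), which reaches to a 1.81-fold difference. The interferon-induced gene Ifi44l, 33.6 kilobases away and read from the same strand, had 0 counts in B6 and 894 in C3H. For Ptgfr itself the summed counts were 60 (B6) and 61 (C3H), with the strains overlapping.

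**Figure D4:**
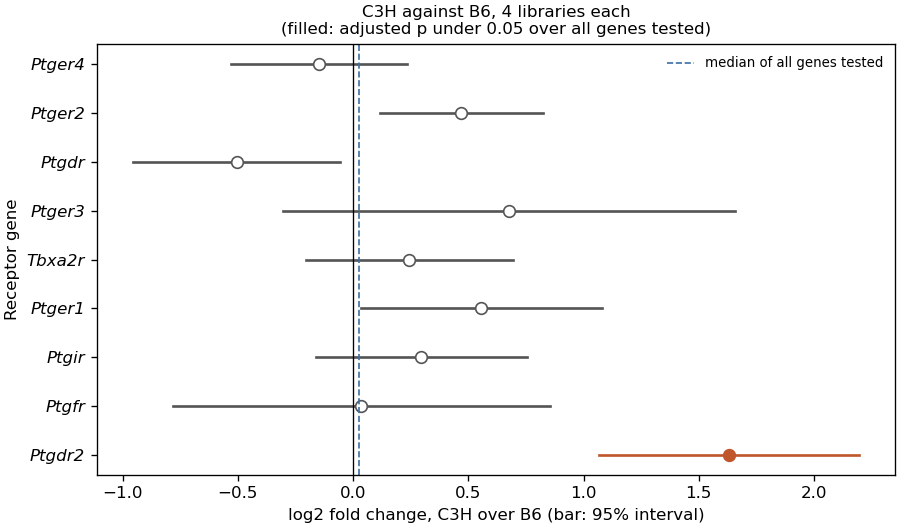
Log2 fold change (C3H over B6) of each receptor with its 95% interval, 4 libraries per strain; filled points passed an adjusted p under 0.05 over all genes tested, and the dashed line is the median of all genes tested (0.03). Ptgdr2 at 1.63 is the one filled point, and the interval of Ptger3 runs from -0.31 to 1.66.

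Of 18 protein-coding genes flanking a receptor, Ptger2 and Ptgdr among them, 15 were tested and 2 were higher in C3H, where 21.4% of all genes tested passed in either direction. They were Gipc1 beside Ptger1 (log2 fold change 0.46, edgeR adjusted p = 0.00690) and Ifi44l beside Ptgfr. Ifi44l, with 0 counts in B6, passed the filter on low counts through its C3H counts and so had to differ. Genes overlapping a receptor were 8, of which 3 were tested and none passed in edgeR. Among them Ttc33 shared 1.23% of the exon bases of Ptger4. The profiles nearest to the other receptors with a mean of at least 50 counts were Klf4 (0.101) and Msmo1 (0.107) for Ptger4, Rbm4b (0.0629) and F2r (0.0653) for Ptger2, and Eif5a2 (0.112) and Reps2 (0.124) for Ptgdr. Those values are the same root mean square differences over 8 libraries, against medians over all genes of 0.333, 0.338 and 0.407. Chosen as the smallest, they lie below those medians by selection.

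Among the genes that make the ligands, every change that passed was a rise in C3H. Of 15 synthesis genes 13 were tested, 5 rose and none fell (38.5%, against 21.4% of all genes), with a median log2 fold change of 0.17 against 0.03. The cyclooxygenases make the common precursor: Ptgs2, the inducible form, rose 1.62-fold, to 3.55 ± 0.652 CPM in C3H (SD, n = 4; adjusted p = 0.0192), and Ptgs1, the constitutive form, 1.17-fold (adjusted p = 0.0423). All C3H libraries lay above all B6 libraries for both, as was so in one direction or the other for 24.4% of all genes tested. Fam213b, also named Prxl2b, a prostamide and prostaglandin F synthase, rose from 99.9 ± 8.93 to 134 ± 14.5 CPM (adjusted p = 0.0106).

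Akr1b8, an aldo-keto reductase, rose 1.65-fold and Cbr1, a carbonyl reductase that turns prostaglandin E2 into F2-alpha, 1.36-fold, with overlapping strains for both. Hpgds, which makes the ligand of DP1 and DP2, did not pass (5.36 and 5.32 mean CPM; log2 fold change -0.01, 95% interval -0.22 to 0.20). Ptges3 and Ptges2, genes named as prostaglandin E synthases, were the most abundant that did not pass (log2 fold changes -0.03 and -0.06). Ptges, also so named, did not pass (7.02 and 7.89 mean CPM; log2 fold change 0.17, edgeR adjusted p = 0.331). Tuft cells, which carry Ptgs1 and Hpgds and make prostaglandin D2, had lower markers in C3H: 10 of 10 tested fell. Of all genes tested, 21.4% passed in either direction. The listed tuft cell markers summed to 75.8 to 99.7 CPM in B6 and 41.2 to 45.1 in C3H, and the part of these cells in the synthesis values was not tested. With 1 library left out, 2 to 4 synthesis genes passed. The call of Ptgs1 was lost on omitting any library other than B6 5 (adjusted p up to 0.137). That of Ptgs2 was lost without B6 3, B6 5, C3H 1 or C3H 4, with adjusted p reaching 0.0581, and that of Cbr1 on omitting any library other than B6 5 and C3H 1 (up to 0.132).

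Genes of prostanoid breakdown and transport moved in both directions. Of 10 listed, 9 were tested, 3 rose and 1 fell (44.4%, against 21.4% of all genes), with a median log2 fold change of 0.17 against 0.03. Ptgr1, which reduces the 15-keto prostaglandins and also inactivates leukotriene B4, rose 2.18-fold, from 135 ± 29.0 to 294 ± 49.8 CPM (SD, n = 4 each; adjusted p = 0.000470). Zadh2, another 15-keto prostaglandin reductase, rose 1.16-fold and Abcc4, an exporter of prostaglandins and cyclic nucleotides, 1.31-fold. Cyp4f14, a hydroxylase of leukotrienes and other eicosanoids, fell by 0.44 on the log2 scale.

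The first step of breakdown did not pass. Hpgd, the 15-hydroxyprostaglandin dehydrogenase, had B6 libraries at 309 ± 121 CPM and C3H libraries at 329.5 ± 77.0 CPM, a log2 fold change of 0.09 (95% interval -0.44 to 0.63), with B6 4 highest at 489.5 CPM. Slco2a1, the prostaglandin uptake carrier, did not pass (-0.12, 95% interval -0.35 to 0.10). With 1 library left out, 1 to 3 of these genes passed. Zadh2 was lost without any 1 of the 8 libraries (adjusted p up to 0.116), Abcc4 on omitting B6 3, B6 5, C3H 3 or C3H 5 (reaching 0.0817) and Cyp4f14 without any 1 library except C3H 5 (up to 0.141).

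Downstream of the receptors, 40 genes of G proteins, cyclases, protein kinase A, phospholipases C, phosphodiesterases and arrestins were tested. Of these 2 rose and 1 fell (7.5%, against 21.4% of all genes), with a median log2 fold change of 0.01. Pde4c, a phosphodiesterase that breaks down cyclic AMP, rose 2.48-fold, from a mean of 1.01 ± 0.396 CPM (SD, n = 4; adjusted p = 0.00318). Arrb1, an arrestin that ends G protein signalling, rose 1.26-fold (adjusted p = 0.00720). Adcy9, an adenylyl cyclase, fell by 0.37 on the log2 scale (adjusted p = 0.0438), a call lost on omitting any library other than B6 5 and C3H 4 (adjusted p up to 0.103). Gnas, the Gs subunit, did not pass (0.25, 95% interval 0.06 to 0.45, edgeR adjusted p = 0.0688). Its C3H libraries all lay above its B6 libraries, as was so in one direction or the other for 24.4% of all genes tested.

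**Figure D5:**
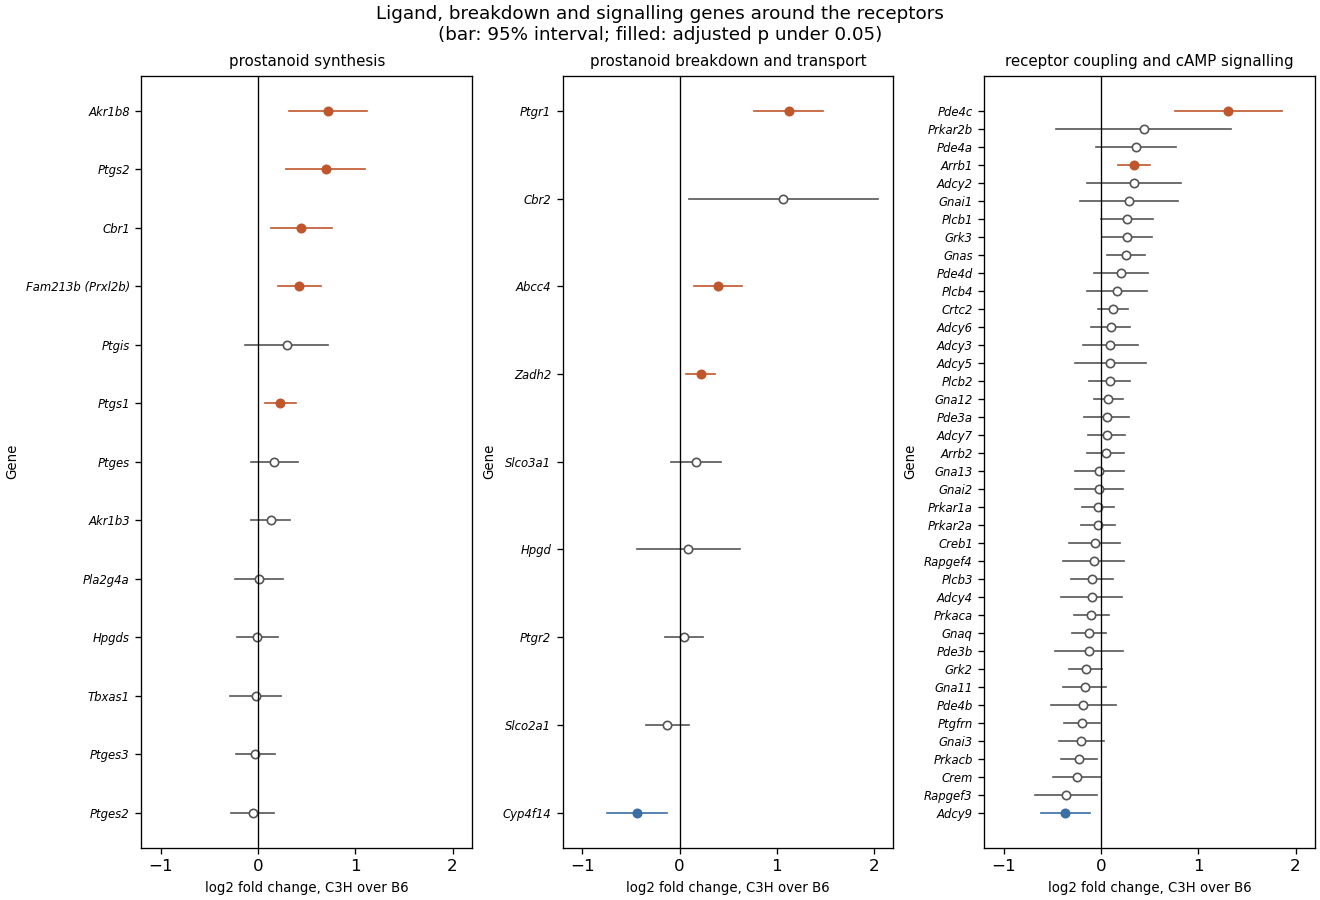
Log2 fold change (C3H over B6) with 95% interval for the tested genes of ligand synthesis, of breakdown and transport, and of receptor coupling and cAMP signalling; filled points passed an adjusted p under 0.05 (orange higher, blue lower in C3H). Filled points number 5 of 13, 4 of 9 and 3 of 40.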

How the data were processed

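RNA sequencing of jejunum was analysed in 8 libraries. Per the labels, they were made from 200 ng of total RNA with an integrity number above 7 by the Illumina Stranded mRNA preparation, in batch 1. The deposited table holds raw counts per Ensembl gene, which the authors made with STAR 2.7.9a on GRCm39 and HTSeq 2.0.2, per the submitters' processing notes; the release of the annotation and the strand setting are not given here by any source. Symbols came from a reference list of gene names, with blanks filled from GENCODE M21 (GRCm38). GENCODE M21 also supplied transcript lengths and gene positions, so no coordinates are given other than those of the promoter windows. Of 56941 identifiers 51948 had a symbol, and all 239 listed symbols were found, 1 under another name.

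Counts were fitted in edgeR 4.0.16 (R 4.3.3) with TMM scaling, filterByExpr (minimum count 10), the quasi-likelihood F test on strain and Benjamini-Hochberg adjustment over 18025 genes. Intervals of 95% came from the fit. CPM used TMM-scaled totals. Between libraries of 1 strain the chi-square per degree of freedom was 23.3 to 90.2, more than sampling noise, so no library was a copy of another. The fit was also run on simulated counts, whose outcome is not reported here and is not used as support.

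The receptors, lists and naming rule were chosen with earlier results of these data known. The rule named all receptors, the direct neighbours of those that passed, every synthesis and breakdown gene that passed with the 2 most abundant that did not, the 4 coupling genes with the smallest adjusted p, and the 2 nearest profiles per receptor with a mean of 50 counts; 1 of these profiles and 1 overlapping gene are not reported here. Hpgds, Ptges, the neighbours and overlapping genes of other receptors and the marker genes were named after their values were seen. Lists were described by counts and medians, with no set test. Alternatives were DESeq2 size factors, library totals, no filter, a mean of 100 counts, DESeq2 1.42.0, limma-voom (limma 3.58.1), a replicate block, each library left out, leaving out B6 2, B6 3, C3H 3 and C3H 5 (richest in pancreas markers in earlier work), and the longest transcript.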

Additional observations from a re-analysis of the deposited data

Results flagged for a closer look

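In 52 groups of 4 libraries (26 genes in 2 strains), 3 held a library standing alone by Dixon's gap test at the 95% level, which chance passes in about 1 in 20. Ptger3 stood at 3.70 CPM in C3H 3, against 0.922 to 1.13 CPM in the other C3H libraries. Akr1b8 stood at 2.84 CPM in B6 3, against 1.96 to 2.01 CPM in the other B6 libraries. Hpgd stood at 489.5 CPM in B6 4, against 228 to 265.5 CPM.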

How the results depend on the processing

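Ptgdr2 stayed higher in C3H and past the threshold in each of the 16 alternatives that tested it, with log2 fold changes of 1.5 to 1.78 and adjusted p of 0.000923 to 0.0375, the last without the 4 pancreas-rich libraries (1.75). These alternatives reuse the same counts and are not independent of each other, and most keep a filter that Ptgdr2 passed through C3H. With no filter in edgeR its adjusted p was 0.00163. A mean of at least 100 counts left only Ptger4 to test, so 0 receptors passed there in edgeR (0 with an unadjusted p under 0.05). Without 1 library, 1 to 2 receptors, 2 to 4 synthesis genes, 1 to 3 breakdown genes, 2 to 3 coupling genes and 3099 to 3682 of all genes passed. Without the 4 pancreas-rich libraries 1675 genes passed, with 2 synthesis, 1 breakdown and 1 coupling gene. That fit had fewer libraries (B6 4, B6 5, C3H 1 and C3H 4), and the part of pancreas in the fall was not tested. B6 3, left out, held 91.5 CPM of pancreas markers, close to the 79.1 CPM of C3H 4, which was kept. DESeq2 size factors gave 3 synthesis genes, and no filter gave 2 breakdown genes. Of the 17 alternatives, the call was lost in 15 for Ptgs1, 13 for Zadh2, 10 each for Adcy9 and Cyp4f14, 8 for Cbr1, 7 for Abcc4, 4 for Ptgs2, 2 each for Fam213b and Akr1b8 (adjusted p up to 0.17 and 0.0995) and 1 for Arrb1 (0.252), and Gnas passed with library totals (0.31, adjusted p = 0.0202). Both strains share replicate numbers 3, 4 and 5. The deviations of same-numbered libraries from their strain means correlated at 0.006, 0.18 and -0.052 over genes, within the -0.245 to 0.37 of libraries numbered differently. No pairing by number was seen, and with so few libraries this check cannot exclude one. In those 6 libraries the replicate block gave 2919 genes in all, 1 receptor, 2 synthesis, 2 breakdown and 2 coupling genes; without the block, 3212, 1, 3, 3 and 2. Signs turned for values near 0, and for Ptger3 (0.68 with all libraries), which turned only without C3H 3. Ptges3 was 0.0412 with library totals, and Ptgfr was -0.0093 with DESeq2. Without the 4 pancreas-rich libraries Ptges2 was 0.077, Hpgd -0.20 and Ptges3 0.038. With 1 library left out, Ptger3 ran from -0.0632 to 0.93, Ptger4 from -0.26 to 0.0175, Ptgfr from -0.24 to 0.21, Hpgd from -0.0376 to 0.40 and Ptges3 from -0.11 to 0.0126. The cause was not tested. Of receptors that did not pass either way, Tbxa2r went from 0.24 to 0.125 without C3H 5, and without the 4 pancreas-rich libraries Ptger1 went from 0.56 to 0.84, Ptgir from 0.30 to 0.57, Ptger4 from -0.15 to -0.24, and Ptger3 from 0.68 to 0.08. Ptger4 held 78.1% of the summed length-scaled level on average, and 79.0% with the longest transcript. Of the receptors, 8 had under 200 counts in every library, which limits them to the intervals given.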
